A study of Mus musculus with 30 samples.

Results

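The lamina propria of the small intestine holds fibroblasts (FB) with high and with lower surface PDGFRα, and the populations compared here are PDGFRα hi FB and the CD34+ part of the fibroblasts with less PDGFRα. CD34+ FB were sorted as ESAM-1-negative cells with intermediate surface PDGFRα and surface CD34, a gate that the labels give as holding both Igfbp5+ FB and CD81+ FB. The gate of PDGFRα hi FB took the cells brightest for surface PDGFRα among those negative for ESAM-1 and CD34. The libraries were chosen by their titles and sort labels, 3 of CD34+ FB and 3 of PDGFRα hi FB, which makes 6 of the 30 libraries of the study. Both populations came from untreated C57BL6/Nrj mice aged 8 to 10 weeks, after dead, lineage-positive, CD31+, BP3+, EpCAM+ and NCAM hi cells had been gated out. The whole study profiled 10 mesenchymal populations sorted from small intestine and colon by bulk RNA sequencing. The labels speak of 3 individual mice without tying libraries to them, so p-values measure the spread between these libraries, part of which may be technical.

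Fibroblasts next to the gut epithelium are known as a source of bone morphogenetic proteins (BMPs) and noncanonical Wnt ligands, which favour differentiation of epithelial cells as they leave the crypt. Deeper fibroblasts are known for secreted BMP antagonists, R-spondins and Wnt ligands that sustain stem cells at the crypt base, and for most of the interstitial collagen. PDGFRα is the receptor for platelet-derived growth factor A, and CD34 is a sialomucin also found on endothelial and haematopoietic progenitor cells.

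The 3 CD34+ FB libraries held 11729938, 11930055 and 9432531 estimated counts and the 3 PDGFRα hi FB libraries held 7327358, 18148945 and 8041204. Replicate 3 of PDGFRα hi FB stood apart from its group: Spearman's rho across genes was 0.858 with replicate 1 and 0.874 with replicate 2, against 0.953 between replicates 1 and 2. Among CD34+ FB libraries the same measure was 0.972, 0.977 and 0.969, and genes are not independent replicates in it. The most abundant transcript of a library took 14.8% of the deposited TPM in replicate 3, against 49.2% and 51.1% in its group mates and 55.5%, 55.9% and 53.8% in CD34+ FB. It belonged to the pseudogene Gm29013 in replicate 3 and matched no gene of the annotation in the other 5. Its share of TPM is not its share of the estimated counts, which the tests used. Of these, 97.81% to 98.05% lay on genes of the annotation in the other 5 libraries and 99.19% in replicate 3. The part of this library's composition in the results was not tested beyond leaving the library out.

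Levels are given as normalised counts scaled to a common library total (CPM), in the order of replicates 1, 2 and 3, and log2 fold changes (log2FC, ± SE, n = 3 against 3) are CD34+ FB minus PDGFRα hi FB, so that a positive value means a higher level in CD34+ FB. A gene was called where the adjusted p lay under 0.05 and the log2FC was beyond 1.5 in either direction. Of 15277 genes tested, 1351 were called, 8.84% of the total. Of these, 835 (5.47%) were higher in CD34+ FB and 516 (3.38%) in PDGFRα hi FB, and the median log2FC over all genes tested was -0.03. Without replicate 3 of PDGFRα hi FB, 1673 genes were called, 1068 and 605 by direction. 1237 of them were among the 1351. Leaving out replicate 1, 2 or 3 of CD34+ FB instead gave 781, 803 and 809 genes, 770, 785 and 786 of them among the 1351. In each case 242 of the 1351 were no longer tested, because genes counted in CD34+ FB alone missed the filter on low counts. Other genes of the 1351 were still tested and lost their call. In a model that took its spread from all 15 small intestinal libraries, 489 genes were called, each of them among the 1351. Of the 147 called genes named below, 121 kept their call in that model, and the others are named at the end of the small intestinal results. In bulk samples, fewer cells of a type and less RNA per cell cannot be told apart.

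The transcripts of the sort markers followed the gates, which is no finding but checks the labels. Pdgfra stood at 893, 823 and 758 CPM in CD34+ FB and 6207, 6855 and 6490.3 CPM in PDGFRα hi FB (log2FC -2.98 ± 0.16, adjusted p = 1.40e-05). Cd34 stood at 679.6, 649 and 559 CPM in CD34+ FB and 102, 95.3 and 155 CPM in PDGFRα hi FB (log2FC 2.42 ± 0.25, adjusted p = 0.000344). For both genes the populations did not overlap, and Cd34 transcript was still present in cells sorted as CD34-negative. Ackr4 and Cd81, described here for the subset they mark, were not used in these gates. Ackr4, a scavenging receptor for the chemokines CCL19, CCL21 and CCL25, stood at 468, 409.8 and 381 CPM against 2.81, 4.74 and 2.87 CPM (log2FC 6.88 ± 0.29, adjusted p = 6.04e-06). Cd81, the tetraspanin in the name of one FB subset of the CD34+ gate, stood at 175, 103 and 86.7 CPM against 0.536, 0.226 and 0.804 CPM (log2FC 7.99 ± 0.52). Every PDGFRα hi FB library lay near 0 for both. Igfbp5, the name gene of the other subset, did not separate the populations, at 941, 1151 and 1183 CPM in CD34+ FB and 757, 831 and 1196 CPM in PDGFRα hi FB (log2FC 0.23 ± 0.22, not called).

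Marker lists of gut fibroblast subsets were called in opposite directions. The lists overlap: 15 of 19 subepithelial markers and 11 of 21 universal and adventitial markers also stand in other lists, and Pdgfra and Cd34 among them encode proteins used to sort, so the counts of lists are not independent. The share to set beside each list, here and below, is that over all genes tested: 5.47% called higher in CD34+ FB and 3.38% in PDGFRα hi FB. Of 19 subepithelial fibroblast markers tested, 11 were called higher in PDGFRα hi FB and none in CD34+ FB, or 1 without replicate 3 of PDGFRα hi FB (list median log2FC -3.17). The member with the largest difference was Sox6, a transcription factor of the SoxD group, at 1291, 1199 and 1953 CPM in PDGFRα hi FB and 2.48, 1.57 and 2.69 CPM in CD34+ FB (log2FC -9.37 ± 0.38, adjusted p = 6.04e-06). Foxl1, the winged-helix factor that marks telocyte-like subepithelial cells, was lower in level, at 12.9, 27.1 and 5.28 CPM against 0.0953, 1.66 and 0.430 CPM (log2FC -4.31 ± 0.94, adjusted p = 0.0179). Its call was lost without replicate 1 or 3 of CD34+ FB (adjusted p = 0.0656 and 0.106) and without replicate 2 of PDGFRα hi FB (0.0586). F3, tissue factor, the starter of the extrinsic clotting cascade, stood at 156, 134 and 212 CPM against 17.3, 19.98 and 18.4 CPM. Of 20 universal and adventitial fibroblast markers tested, 12 were called higher in CD34+ FB and 1 in PDGFRα hi FB (list median log2FC 2.48). The last of these counts was 0 without any 1 of the CD34+ FB libraries. Pi16, a protease inhibitor of adventitial fibroblasts, stood at 35.9, 33.9 and 16.01 CPM against 0.536, 1.24 and 0.115 CPM. Dpt, dermatopontin, a collagen-binding matrix protein, stood at 4832, 4212 and 4378 CPM against 742, 1134 and 262 CPM, without overlap. Of the 8 genes of general fibroblast identity, 5 were called higher in CD34+ FB and 1, Pdgfra, in PDGFRα hi FB (list median log2FC 1.72).

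**Figure D1:**
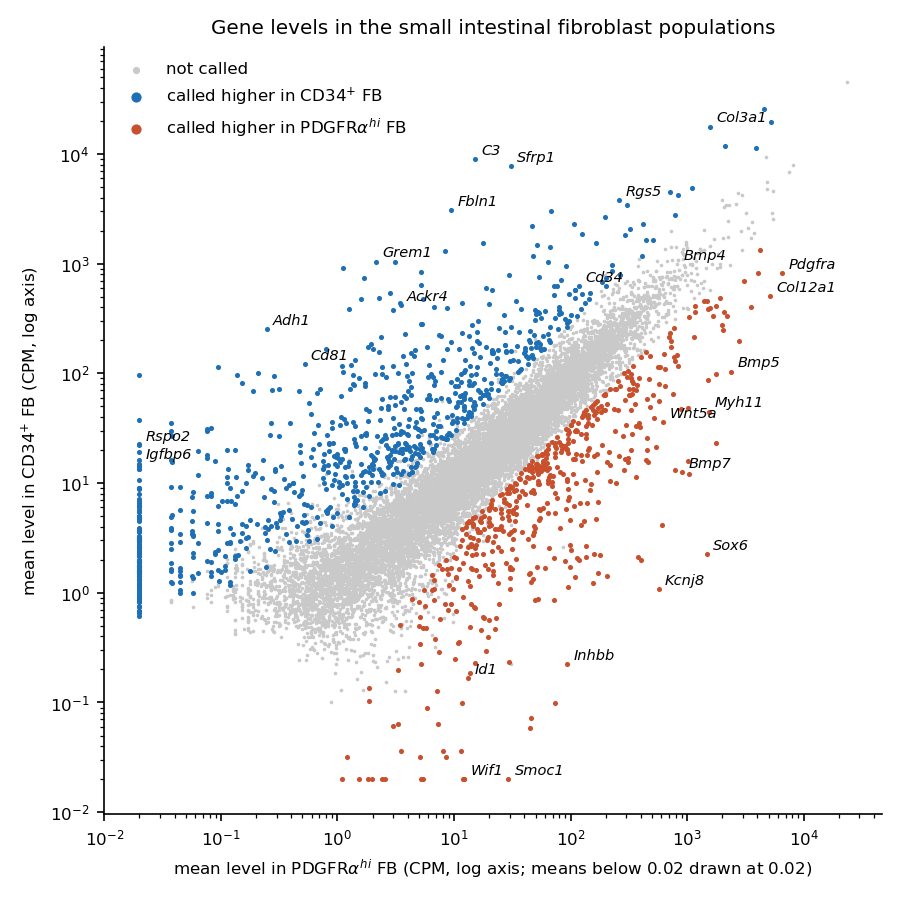
Mean level of each tested gene in PDGFRα hi FB (x axis) and CD34+ FB (y axis), both in CPM on log axes, with 3 libraries per population. Blue points are the 835 genes called higher in CD34+ FB and red points the 516 called higher in PDGFRα hi FB, with Bmp4 among the grey points that were not called.

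Ligands of the BMP and activin branch were the group that leaned furthest towards PDGFRα hi FB by list median, among lists with at least 5 genes tested. Of 9 BMP and activin ligand genes tested, 5 were called higher there and none in CD34+ FB, or 1 without a filter on low counts (list median log2FC -3.45). Bmp5 stood at 2162, 2394 and 2636 CPM in PDGFRα hi FB and 110.0, 111 and 90.7 CPM in CD34+ FB (log2FC -4.52 ± 0.20, adjusted p = 7.00e-06). Bmp7 stood at 1009.5, 1075 and 621 CPM against 13.1, 11.5 and 13.4 CPM (log2FC -6.14 ± 0.28, adjusted p = 7.00e-06). Replicate 3 was the highest PDGFRα hi FB library for Bmp5 and the lowest for Bmp7, and every library of that population lay above every CD34+ FB library in both. Bmp3, an atypical member that restrains osteogenic BMP signalling, stood at 1092, 1009 and 965 CPM against 15.1, 16.4 and 16.3 CPM (log2FC -6.00 ± 0.20). Inhba and Inhbb, which encode activin subunits, were also called (log2FC -3.45 ± 0.38 and -8.62 ± 0.84), and Inhbb was at most 5.0 counts in a CD34+ FB library. Bmp4 was high in both, at 997, 1024 and 961 CPM in CD34+ FB and 919, 910.0 and 629.8 CPM in PDGFRα hi FB (log2FC 0.29 ± 0.18, adjusted p = 0.392). The Bmp4 values of PDGFRα hi FB all lay below those of CD34+ FB, by less than the threshold. Per kb of effective length the mean level of Bmp4 was 552 in PDGFRα hi FB, between Bmp5 at 674 and Inhba at 276. In CD34+ FB the mean level of Bmp4 per kb was 669, with Bmp2 next among the BMP genes named here at 31.5.

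BMP antagonists did not move together. Of 10 tested, 3 were called higher in CD34+ FB and 2 in PDGFRα hi FB (list median log2FC 0.77). Grem1, a secreted antagonist of BMP2, BMP4 and BMP7 that sustains the crypt base, stood at 1252, 1000.0 and 886 CPM in CD34+ FB and 1.34, 1.92 and 3.22 CPM in PDGFRα hi FB (log2FC 8.92 ± 0.38, adjusted p = 6.66e-06). Every CD34+ FB library lay far above every PDGFRα hi FB library. The opposite direction was taken by Nbl1, at 933, 1296 and 262 CPM in PDGFRα hi FB and 116, 147 and 90.1 CPM in CD34+ FB (log2FC -2.80 ± 0.51, adjusted p = 0.00731), and by Chrd, which encodes chordin (log2FC -2.32 ± 0.50, adjusted p = 0.0168). Replicate 3 was the lowest PDGFRα hi FB library for both without reaching the CD34+ FB values. The Nbl1 call was lost without replicate 3 of CD34+ FB (adjusted p = 0.0522), and the Chrd call without replicate 1 or 3 of CD34+ FB (0.0993 and 0.0983) or replicate 1 or 2 of PDGFRα hi FB (0.0505 and 0.0540). Among 15 receptor, SMAD and target genes tested, 2 were called higher in CD34+ FB and 2 in PDGFRα hi FB (list median log2FC 0.13). The first count was 0 without any 1 of the CD34+ FB libraries, when Bmpr1b was no longer tested, and 1 without replicate 1 or 3 of PDGFRα hi FB or with length-scaled counts. The second was 0 without replicate 2 of PDGFRα hi FB and 1 without any other single library, and Id1 was not tested when a PDGFRα hi FB library was left out. In the model of all small intestinal libraries the counts were 0 and 1. Id1, a direct target of BMP signalling, stood at 7.10, 11.2 and 21.5 CPM in PDGFRα hi FB and 0.0953, 0.0873 and 0.322 CPM in CD34+ FB (log2FC -6.26 ± 0.76, adjusted p = 0.000899). Bmpr1b, a type I BMP receptor, lay the other way, at 7.72, 3.32 and 7.52 CPM in CD34+ FB and 0, 0.0564 and 0 CPM in PDGFRα hi FB (log2FC 7.31 ± 0.93).

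Wnt ligands were called in both directions. Wnt5a, a ligand of noncanonical signalling, stood at 689, 514 and 656 CPM in PDGFRα hi FB and 32.9, 34.5 and 40.8 CPM in CD34+ FB (log2FC -4.10 ± 0.22, adjusted p = 1.40e-05). Wnt4 stood at 213, 308 and 138 CPM against 8.48, 11.2 and 11.6 CPM (log2FC -4.38 ± 0.33, adjusted p = 6.85e-05). Wnt2b, a canonical ligand of the crypt niche, stood at 612, 664 and 507 CPM in CD34+ FB and 33.5, 13.2 and 9.30 CPM in PDGFRα hi FB (log2FC 5.01 ± 0.49, adjusted p = 0.000264). None of these genes overlapped between the populations. Wnt5b, Wnt9a and Wnt11 were tested and not called (log2FC -2.11 ± 0.87, 2.96 ± 0.93 and 1.63 ± 1.25). Without replicate 3 of PDGFRα hi FB both Wnt5b and Wnt9a were called (log2FC -2.54 and 2.38, adjusted p = 0.0259 and 0.00123), and Wnt11 was without replicate 2 (log2FC 6.79, adjusted p = 0.0407). Wnt9a was also called with DESeq2 (adjusted p = 0.00450) and without a filter on low counts (0.0484). The R-spondins, which raise Wnt receptor levels on target cells, were on the side of Wnt2b. Rspo3 stood at 98.1, 96.0 and 82.0 CPM in CD34+ FB and 4.42, 3.104 and 0.345 CPM in PDGFRα hi FB (log2FC 5.14 ± 0.62), and Rspo1 at 14.01, 25.0 and 11.6 CPM against 1.61, 0.847 and 0.574 CPM (log2FC 4.09 ± 0.55). Rspo2 had 0 counts in each PDGFRα hi FB library and 29.6, 16.2 and 21.1 CPM in CD34+ FB, at least 73.1-fold higher against a floor of 3 counts per library. Of the 9 ligand and R-spondin genes tested, 4 were called higher in CD34+ FB and 2 in PDGFRα hi FB (list median log2FC 2.96).

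Of 9 Wnt antagonists tested, secreted or bound to the membrane, 5 were called higher in CD34+ FB and 1 in PDGFRα hi FB (list median log2FC 3.92). Without any 1 of the CD34+ FB libraries the first count was 3, and without any 1 of the PDGFRα hi FB libraries the second was 0, Sfrp4 and Wif1 being among the genes then not tested. Sfrp1, a decoy that binds Wnt proteins, stood at 8007, 9466 and 5932 CPM in CD34+ FB and 27.9, 35.6 and 29.2 CPM in PDGFRα hi FB (log2FC 7.98 ± 0.28, adjusted p = 3.91e-06). Dkk2, which blocks the LRP5 and LRP6 coreceptors, stood at 307, 229.9 and 183 CPM against 9.11, 22.0 and 16.4 CPM (log2FC 3.92 ± 0.36), and Apcdd1, a membrane-bound inhibitor, at 149, 114 and 87.9 CPM against 2.55, 5.70 and 0.804 CPM (log2FC 5.22 ± 0.58). In each of the 3 genes the lowest CD34+ FB library lay above the highest PDGFRα hi FB library. The exception was Wif1, Wnt inhibitory factor 1, with 0 counts in each CD34+ FB library and 6.16, 19.6 and 10.8 CPM in PDGFRα hi FB, at least 42.1-fold higher there. Sfrp4 was its mirror image, with 0 counts in PDGFRα hi FB and 6.48, 5.58 and 6.88 CPM in CD34+ FB, at least 20.7-fold higher.

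**Figure D2:**
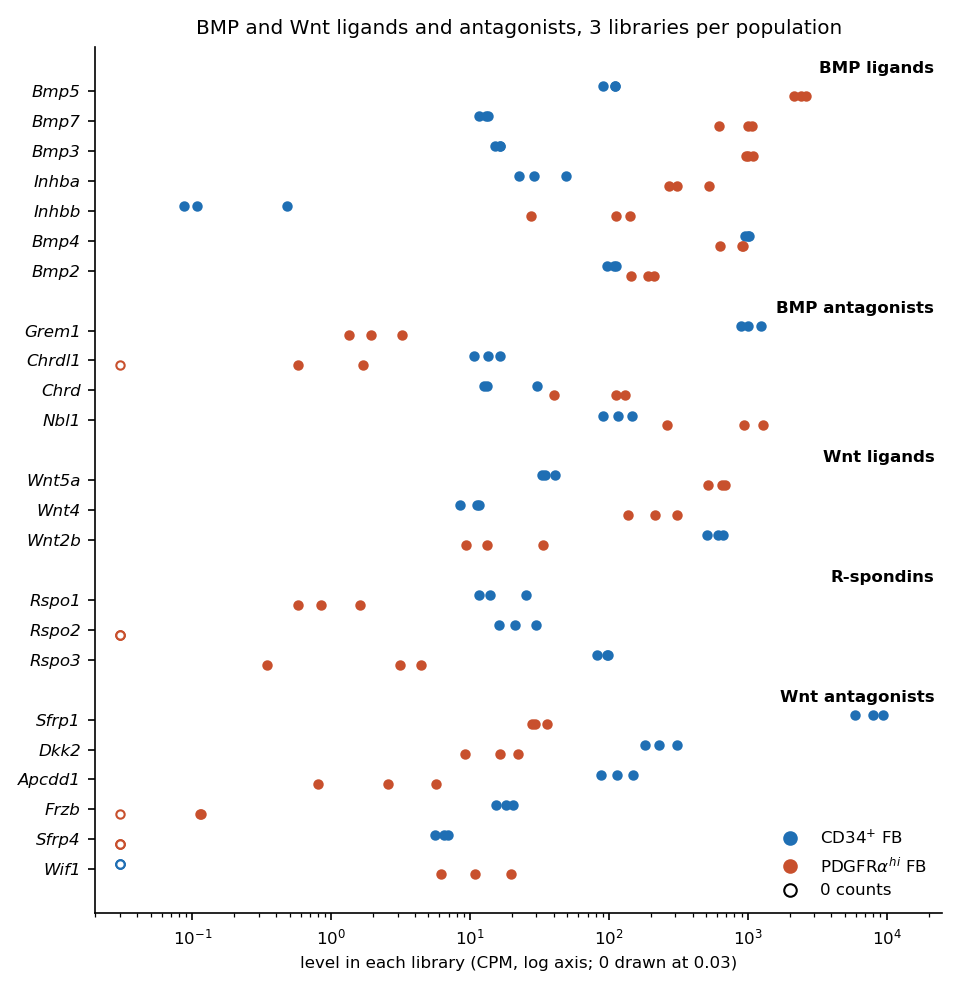
Level of BMP and Wnt pathway genes in each library (x axis, CPM on a log axis), with blue points for the 3 CD34+ FB libraries, red points for the 3 PDGFRα hi FB libraries and open points for 0 counts. Red points lie to the right for Bmp5, Bmp7, Bmp3, Wnt5a and Wnt4, and blue points for Grem1, Wnt2b, the R-spondins and Sfrp1, while those of Bmp4 lie close together.

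Genes of other growth factor families were also called. Of 9 EGF family ligands tested, 1 was called higher in PDGFRα hi FB (list median log2FC 0.04): Nrg1, neuregulin 1, at 28.3, 33.8 and 6.202 CPM against 0.476, 0.960 and 0.322 CPM in CD34+ FB (log2FC -5.21 ± 0.75, adjusted p = 0.00228). Replicate 3 of PDGFRα hi FB was the lowest of its group for Nrg1 and still above each CD34+ FB library, and without it 2 ligands of the family were called. Among 7 FGF and HGF ligands tested, 1 was called higher in PDGFRα hi FB and 2 in CD34+ FB (list median log2FC 0.88). Fgf9, at 143, 143 and 156 CPM in PDGFRα hi FB, stood at 7.34, 8.29 and 10.1 CPM in CD34+ FB (log2FC -4.10 ± 0.23, adjusted p = 1.66e-05). Fgf7 and Fgf10, mesenchymal ligands of the epithelial splice form of FGFR2, lay the other way (log2FC 6.27 ± 0.62 and 4.14 ± 0.57). Fgf7 stood at 68.1, 38.5 and 21.7 CPM in CD34+ FB and 0.804, 0.282 and 0.689 CPM in PDGFRα hi FB, a wide spread among the former without overlap. Of the 4 FGF receptor genes, Fgfr2 stood at 258, 357 and 311 CPM in CD34+ FB and 40.3, 69.7 and 39.2 CPM in PDGFRα hi FB (log2FC 2.64 ± 0.27), and Fgfr4 had 0 counts in each PDGFRα hi FB library and 5.05, 4.97 and 6.34 CPM in CD34+ FB.

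In the IGF axis 2 of 8 genes tested were called, both higher in CD34+ FB (list median log2FC 0.88), or 1 without any 1 of the CD34+ FB libraries, when Igfbp6 was not tested. Igfbp6, an IGF2-binding protein, had 0 counts in PDGFRα hi FB and 16.5, 14.7 and 13.9 CPM in CD34+ FB, at least 49.2-fold higher, while the receptor gene Igf1r differed less (log2FC 1.71 ± 0.18). Of 5 PDGF receptor and ligand genes tested, 1 was called higher in CD34+ FB and 1 in PDGFRα hi FB (list median log2FC 0.53). Besides the sorted receptor this was Pdgfc, a ligand of PDGFRα, at 13.0, 7.07 and 5.05 CPM in CD34+ FB and 0.536, 0.508 and 0.230 CPM in PDGFRα hi FB (log2FC 4.26 ± 0.64). For hedgehog reception and response, 4 of 14 tested genes were called higher in CD34+ FB and 2 in PDGFRα hi FB (list median log2FC 0.58). The second count was 0 without replicate 3 of CD34+ FB and in the model of all small intestinal libraries, and 1 without replicate 1 of CD34+ FB or replicate 2 of PDGFRα hi FB. Higher in CD34+ FB were Hhip, a decoy for hedgehog ligands, at 75.4, 70.9 and 34.9 CPM against 1.88, 4.23 and 2.41 CPM (log2FC 4.37 ± 0.44), and Gas1, a coreceptor, at 39.4, 27.8 and 34.7 CPM against 1.61, 1.19 and 0.345 CPM (log2FC 5.02 ± 0.50). Neither gene overlapped between the populations. In the Notch list 2 of 10 tested genes were called higher in CD34+ FB and 1 in PDGFRα hi FB (list median log2FC 0.64), among them the target gene Hey1 at 3.72, 8.12 and 5.16 CPM against 0.134, 0 and 0 CPM. The first of these counts was 0 without replicate 3 of CD34+ FB and 1 without replicate 1 or 2, Hey1 being untested in each case, and 1 in the model of all small intestinal libraries. The second was 0 in that model, with length-scaled counts and without any single library other than replicate 1 of PDGFRα hi FB. In the TGF-β list the counts were 2 and 1 of 11 (list median log2FC 0.64). Ltbp4, a latent TGF-β binding protein needed for elastic fibres, stood at 4804, 5551 and 4403 CPM in CD34+ FB and 1192, 1425 and 678 CPM in PDGFRα hi FB (log2FC 2.18 ± 0.27), whereas its relative Ltbp2 stood at 1.91, 1.92 and 3.55 CPM against 71.3, 184 and 47.5 CPM (log2FC -5.34 ± 0.58). Both were free of overlap, in opposite directions.

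Genes of the extracellular matrix were called in both directions. Among 30 collagen genes, 7 were called higher in CD34+ FB and 4 in PDGFRα hi FB (list median log2FC 0.54). Col3a1, a fibril-forming collagen, stood at 26030.0, 9084 and 18230.0 CPM in CD34+ FB and 1494, 1695 and 1531 CPM in PDGFRα hi FB (log2FC 3.50 ± 0.36, adjusted p = 0.000347). Col1a1 stood at 37020.0, 14854 and 24435 CPM against 5175, 3490.3 and 5111 CPM (log2FC 2.47 ± 0.34, adjusted p = 0.00174). Replicate 2 was the lowest CD34+ FB library for both and still above each PDGFRα hi FB library. Its partner chain Col1a2 was near the fold threshold (log2FC 1.55 ± 0.28), and its call was lost without replicate 1 of CD34+ FB (log2FC 1.25) or replicate 2 of PDGFRα hi FB (1.46) or with length-scaled counts (1.49). The Col1a2 call was lost with the replicate number as a block as well. The count of 7 was 4 without replicate 1 of CD34+ FB and 4 with length-scaled counts. Col14a1 and Col8a1 were also higher in CD34+ FB, at 2693, 2145 and 2067 CPM against 80.8, 93.5 and 149 CPM and 634, 397 and 384 CPM against 1.34, 1.41 and 2.07 CPM (log2FC 4.41 ± 0.30 and 8.21 ± 0.36). Collagens higher in PDGFRα hi FB were the basement membrane chains Col4a5 and Col4a6, neighbours on the X chromosome, the fibril-associated Col12a1 and the transmembrane Col23a1. Col4a5 stood at 567, 478 and 588 CPM in PDGFRα hi FB and 28.9, 18.8 and 16.3 CPM in CD34+ FB (log2FC -4.67 ± 0.28), and Col4a6 at 130.3, 163 and 68.9 CPM against 7.34, 6.28 and 6.13 CPM (log2FC -4.18 ± 0.35). Col12a1 stood at 5018, 5445 and 4992 CPM in PDGFRα hi FB and 416, 479 and 632 CPM in CD34+ FB (log2FC -3.33 ± 0.21, adjusted p = 2.61e-05).

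Of 18 elastic fibre genes tested, 8 were called higher in CD34+ FB and 2 in PDGFRα hi FB (list median log2FC 0.70). The second count was 1 without replicate 2 of PDGFRα hi FB, and 1 as well with DESeq2, RLE size factors, upper-quartile normalisation or length-scaled counts. Eln, elastin itself, stood at 1543, 1109 and 1781 CPM in CD34+ FB and 79.7, 66.4 and 9.30 CPM in PDGFRα hi FB (log2FC 4.85 ± 0.70). Fbln1, fibulin 1, stood at 3486, 3106 and 2667 CPM against 6.30, 7.90 and 14.1 CPM (log2FC 8.35 ± 0.39, adjusted p = 7.00e-06), and the microfibril-associated Mfap5 at 179.8, 163 and 156 CPM against 0.670, 1.24 and 0.459 CPM (log2FC 7.59 ± 0.35). Replicate 3 was the lowest PDGFRα hi FB library for Eln and Mfap5 and the highest for Fbln1. Fbn2, a fibrillin, was the reverse, at 414, 289.6 and 485 CPM in PDGFRα hi FB and 39.0, 13.2 and 45.8 CPM in CD34+ FB (log2FC -3.61 ± 0.46). Of 9 small leucine-rich proteoglycans tested, 3 were called higher in CD34+ FB and 1, Ogn, in PDGFRα hi FB (list median log2FC 0.92). Dcn, decorin, stood at 13998, 11288 and 10218 CPM in CD34+ FB and 1883, 1976 and 2423 CPM in PDGFRα hi FB (log2FC 2.50 ± 0.20, adjusted p = 9.30e-05), and Ogn, osteoglycin, at 185, 106 and 99.0 CPM against 499, 832 and 1041 CPM (log2FC -2.61 ± 0.35).

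Matricellular and adhesive proteins were called in both directions, 5 and 2 of 17 (list median log2FC 0.69). The second count was 1 without any 1 of the PDGFRα hi FB libraries, when Smoc1 was not tested. Smoc1, a SPARC relative that binds BMP and basement membrane, had 0 counts in each CD34+ FB library and 44.5, 30.0 and 13.2 CPM in PDGFRα hi FB, at least 101-fold higher there. Sparc, a collagen-binding protein, stood at 28003, 10347 and 20535 CPM in CD34+ FB and 5206, 4576 and 6012 CPM in PDGFRα hi FB (log2FC 1.90 ± 0.34, adjusted p = 0.00642), and Postn, periostin, at 999, 486 and 871 CPM against 30.0, 16.03 and 43.1 CPM (log2FC 4.72 ± 0.45). As for the type I and III collagens, replicate 2 was the lowest CD34+ FB library for Sparc and Postn. In the list of laminins and basement membrane proteins 1 of 16 genes was called, Lama4, a laminin chain, at 1903, 1726 and 2077 CPM in PDGFRα hi FB and 492, 472 and 496 CPM in CD34+ FB (log2FC -1.96 ± 0.17, list median -0.71), or 2 genes without replicate 1 of PDGFRα hi FB. Metalloproteinases and their inhibitors gave 5 calls in CD34+ FB and 1 in PDGFRα hi FB among 17 tested (list median log2FC 0.66). The former held the procollagen N-proteinase Adamts2, at 757, 453 and 672 CPM against 81.0, 85.3 and 61.7 CPM (log2FC 3.05 ± 0.25), and the latter Adam12 (log2FC -2.24 ± 0.31). Adam19, a membrane protease outside the list and one of the most abundant called genes of PDGFRα hi FB, stood at 3832, 3900.0 and 2939 CPM there and 343, 309 and 568 CPM in CD34+ FB (log2FC -3.12 ± 0.27).

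C3 and Serping1, both of the complement system, were among the 12 most abundant called genes of CD34+ FB. Of 15 complement genes tested, 6 were called higher in CD34+ FB and 2 in PDGFRα hi FB (list median log2FC 0.99). The second count was 0 without replicate 2 or 3 of CD34+ FB or replicate 2 of PDGFRα hi FB, and 1 without any other single library. C3, the central component, stood at 10894, 9949 and 6158 CPM in CD34+ FB and 16.9, 14.6 and 13.7 CPM in PDGFRα hi FB (log2FC 9.23 ± 0.33, adjusted p = 3.91e-06). C4b stood at 2495, 2279 and 1876 CPM against 67.6, 49.6 and 22.3 CPM (log2FC 5.59 ± 0.42, adjusted p = 6.33e-05). For both the populations lay far apart, with replicate 3 the lowest CD34+ FB library. A pair of regulators lay on the same side. Cd55, decay-accelerating factor, stood at 499.8, 532 and 416 CPM against 1.47, 2.77 and 2.64 CPM (log2FC 7.68 ± 0.30), and Serping1, the C1 inhibitor, at 4922, 4242 and 3583 CPM against 868, 1039.9 and 582 CPM (log2FC 2.37 ± 0.24). Cfb, factor B, was called too (log2FC 2.79 ± 0.49), but 75.5% of its 31-mers also occur in transcripts of other genes, so its estimate is uncertain. C7, a terminal component, was higher in PDGFRα hi FB, at 1177, 1327 and 1000.2 CPM against 544, 392 and 285 CPM (log2FC -1.51 ± 0.25, adjusted p = 0.00448). That value lay just past the fold threshold and fell short of it without replicate 2 of CD34+ FB (log2FC -1.46), replicate 3 of CD34+ FB (-1.29) or replicate 2 of PDGFRα hi FB (-1.44) and under upper-quartile normalisation (-1.40).

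Chemokine genes were called in both directions, 4 of 18 higher in PDGFRα hi FB and 2 in CD34+ FB (list median log2FC 0.20). The second count was 1 without any 1 of the CD34+ FB libraries and 4 without replicate 3 of PDGFRα hi FB. Cxcl12, the ligand of CXCR4, stood at 1478, 1668 and 1275 CPM in PDGFRα hi FB and 504, 421 and 449 CPM in CD34+ FB (log2FC -1.68 ± 0.17, adjusted p = 0.000347), and fell short of the fold threshold with length-scaled counts (log2FC -1.33). Ccl11, eotaxin, stood at 1228, 1073 and 832 CPM against 322, 391 and 274 CPM (log2FC -1.66 ± 0.21, adjusted p = 0.00125). Cxcl13, the B cell attractant of lymphoid stroma, stood at 106, 112 and 27.2 CPM in CD34+ FB and 2.14, 2.48 and 0.574 CPM in PDGFRα hi FB (log2FC 5.53 ± 0.69). None of the 3 overlapped between the populations, and the Cxcl13 value of CD34+ FB replicate 3 was well below its group mates. Of the atypical chemokine receptors, Ackr2 was not tested and the other 3 were called higher in CD34+ FB. Besides Ackr4 these were Ackr3, a scavenger of CXCL12, at 30.4, 60.8 and 51.1 CPM against 3.75, 2.14 and 2.297 CPM (log2FC 4.14 ± 0.40), and Ackr1, with 0 counts in PDGFRα hi FB and 6.10, 6.11 and 5.91 CPM in CD34+ FB. Ackr1 passed the filter on low counts through CD34+ FB alone, so it could be called in that direction only. Of 14 cytokine and lymphoid support genes tested, 3 were called higher in CD34+ FB and 1 in PDGFRα hi FB (list median log2FC -0.12). The first count was 1 without replicate 3 of CD34+ FB, and the second 2 without replicate 1 or 2 of PDGFRα hi FB. Il33, an alarmin, stood at 194, 203 and 169.9 CPM in CD34+ FB and 18.9, 25.1 and 5.28 CPM in PDGFRα hi FB (log2FC 3.53 ± 0.48), and Il34, a ligand of the CSF1 receptor, at 1.62, 1.66 and 2.90 CPM against 94.7, 86.2 and 34.5 CPM (log2FC -5.11 ± 0.48, adjusted p = 0.000232). For Il34 replicate 3 was the lowest PDGFRα hi FB library, above each CD34+ FB library.

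Genes of vitamin A metabolism and handling, not all of them enzymes, were divided between the populations. Of 12 genes tested, 4 were called higher in PDGFRα hi FB and 3 in CD34+ FB (list median log2FC -0.33). On the PDGFRα hi side lay Aldh1a1, which makes retinoic acid from retinal, at 1352, 1984 and 1192 CPM against 108, 77.2 and 77.6 CPM (log2FC -4.10 ± 0.26, adjusted p = 2.96e-05), Rdh10, which makes retinal from retinol (log2FC -2.25 ± 0.23), and Bco1, which cleaves β-carotene to retinal, at 39.8, 24.3 and 26.5 CPM against 1.81, 1.22 and 2.15 CPM (log2FC -4.12 ± 0.40). On the CD34+ side lay Adh1, an alcohol dehydrogenase, at 337, 259.8 and 165 CPM against 0, 0.282 and 0.459 CPM (log2FC 9.86 ± 0.56, adjusted p = 1.71e-05), and Lrat, which esterifies retinol for storage (log2FC 4.92 ± 0.71). These genes did not overlap between the populations. Prostaglandin genes gave 4 calls in CD34+ FB and 2 in PDGFRα hi FB among 11 tested (list median log2FC 0.15). The first count was 2 without any 1 of the CD34+ FB libraries, when Ptgir was among the genes not tested. Higher in PDGFRα hi FB were Ptgs1, cyclooxygenase 1, at 136, 223 and 143 CPM against 33.6, 33.2 and 49.2 CPM (log2FC -2.10 ± 0.27), and the prostacyclin synthase gene Ptgis, at 111, 123 and 97.4 CPM against 24.4, 14.3 and 16.9 CPM (log2FC -2.57 ± 0.26). The prostacyclin receptor gene Ptgir lay opposite, at 11.5, 15.4 and 16.01 CPM in CD34+ FB and 0, 0.0564 and 0 CPM in PDGFRα hi FB (log2FC 8.50 ± 0.72), as did Hpgd, which breaks prostaglandins down (log2FC 3.57 ± 0.37).

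Of 18 tested genes of a list of smooth muscle contraction and its regulation, 10 were called on the PDGFRα hi side and 3 on the CD34+ side (list median log2FC -2.15). Myh11, smooth muscle myosin heavy chain, stood at 1124, 2078 and 1398 CPM in PDGFRα hi FB and 52.0, 42.9 and 39.4 CPM in CD34+ FB (log2FC -5.09 ± 0.28, adjusted p = 1.59e-05). Acta2, smooth muscle actin, stood at 883, 1237 and 938 CPM against 43.9, 34.2 and 68.0 CPM (log2FC -4.38 ± 0.31, adjusted p = 4.50e-05). In both, replicate 2 was the highest PDGFRα hi FB library and no library overlapped. Tagln, Myl9, Mylk, Cald1 and the calcium-binding Casq2 were called in the same direction (log2FC -4.61 ± 0.37, -3.70 ± 0.36, -2.71 ± 0.18, -2.29 ± 0.17 and -6.80 ± 0.32). The CD34+ side held Myocd, the cofactor that drives smooth muscle genes, at 16.9, 19.5 and 23.0 CPM against 0.670, 1.52 and 1.26 CPM (log2FC 4.06 ± 0.44), with Lmod1 and Hhip. Hhip, the decoy for hedgehog ligands, is counted in the hedgehog list as well. Several markers of differentiated muscle were not called: Actg2 stood at 7.24, 4.45 and 4.62 CPM in CD34+ FB and 2.41, 4.35 and 16.1 CPM in PDGFRα hi FB, and Cnn1 at 2.48, 1.75 and 1.07 CPM and 1.34, 1.69 and 0.689 CPM. The summed level of the 19 list genes was 2474, 2591 and 2600.0 CPM in CD34+ FB and 12370.0, 15720.0 and 12810.0 CPM in PDGFRα hi FB, with Cald1 the most abundant and none at 0 in all 6 libraries. The study sorted smooth muscle cells as ESAM-1+ cells without PDGFRα, which the gates of both populations leave out, and the muscularis externa had been removed. The part of any muscle cells left in this difference was not tested.

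Promoters of these genes were searched for the CArG box, the site that serum response factor binds, because contractile and immediate early genes are both known targets of that factor. The box reads the same on both strands. In the RefSeq promoter windows of GRCm38.p6, from 250 bases before to 50 bases after each start, 488 of 27025 genes (1.81%) held it in at least 1 window, and 535 of 32851 windows (1.63%) did. Among the 15 contractile genes with a window, 2 held it, Actc1 and Myl9, and among the 13 immediate early genes with a window 2 did, Egr2 and Zfp36. By window these were 2 of 16 and 5 of 17, since a gene can have several. Myl9, a myosin light chain, was called higher in PDGFRα hi FB, at 522, 743 and 281 CPM against 39.9, 31.8 and 46.3 CPM, and Zfp36, an mRNA decay factor, in CD34+ FB, at 594, 438 and 689 CPM against 136, 96.1 and 98.3 CPM. Their windows are shown because they hold the same motif, marked in capitals, in genes that differed in opposite directions. The Myl9 window is chr2:156775214-156775513 on the plus strand and the Zfp36 window chr7:28379179-28379478 on the minus strand.
Myl9: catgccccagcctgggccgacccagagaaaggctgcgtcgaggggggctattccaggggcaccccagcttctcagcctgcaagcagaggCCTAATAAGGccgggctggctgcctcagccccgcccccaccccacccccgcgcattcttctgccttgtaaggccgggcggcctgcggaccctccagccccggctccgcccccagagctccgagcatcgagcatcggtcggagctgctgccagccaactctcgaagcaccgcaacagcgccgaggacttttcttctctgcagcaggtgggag
Zfp36: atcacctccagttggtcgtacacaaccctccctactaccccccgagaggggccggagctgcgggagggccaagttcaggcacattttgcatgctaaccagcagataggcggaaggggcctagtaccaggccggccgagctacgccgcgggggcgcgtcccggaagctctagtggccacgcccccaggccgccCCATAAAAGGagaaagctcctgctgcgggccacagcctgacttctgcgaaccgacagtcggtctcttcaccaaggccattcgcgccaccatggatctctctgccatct
A match in these letters is a description of the window and not evidence of binding.

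Receptors for neurotransmitters and hormones were called in 8 cases higher in CD34+ FB and in 5 higher in PDGFRα hi FB among 19 tested (list median log2FC 1.19). The first count was 5 without any 1 of the CD34+ FB libraries, and the second 3 without replicate 2 or 3 of CD34+ FB or replicate 2 of PDGFRα hi FB. Ednrb and Ednra, the receptors of endothelin, were on the PDGFRα hi side. Ednrb stood at 735, 582 and 1058 CPM there and 15.3, 12.5 and 11.5 CPM in CD34+ FB (log2FC -5.92 ± 0.32, adjusted p = 1.36e-05), and Ednra at 3106, 2758 and 2428 CPM against 217, 200.3 and 169 CPM (log2FC -3.82 ± 0.19, adjusted p = 9.54e-06). With them went the ligand gene Edn3 (log2FC -3.92 ± 0.44) and Ece1, the enzyme that activates endothelins, at 2139, 2220.3 and 1708 CPM against 202, 301 and 243 CPM (log2FC -3.02 ± 0.21). On the CD34+ side were Agtr1a, an angiotensin II receptor, at 76.1, 74.9 and 67.0 CPM against 0.268, 0.452 and 0.230 CPM (log2FC 7.70 ± 0.35), and Adcyap1r1, the receptor of the neuropeptide PACAP, at 269.6, 311 and 261 CPM against 4.42, 4.52 and 7.12 CPM (log2FC 5.72 ± 0.28, adjusted p = 9.05e-06). Ednra and Ednrb thus lay opposite to Agtr1a, and none of these genes overlapped between the populations. Potassium channel genes gave 4 calls in CD34+ FB and 2 in PDGFRα hi FB among 13 tested (list median log2FC 0.27). The first count was 1 without any 1 of the CD34+ FB libraries and 2 without replicate 1 or 2 of PDGFRα hi FB. Those higher in PDGFRα hi FB encode the pore and the sulfonylurea subunit of 1 ATP-sensitive channel. Kcnj8 stood at 569, 710.0 and 427 CPM against 2.29, 0.436 and 0.537 CPM (log2FC -9.00 ± 0.58, adjusted p = 3.10e-05), and Abcc9 at 1589, 1663 and 2100.5 CPM against 30.7, 21.2 and 18.2 CPM (log2FC -6.25 ± 0.29, adjusted p = 7.00e-06).

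Of 39 mesenchymal transcription factors tested, 11 were called higher in CD34+ FB and 9 in PDGFRα hi FB (list median log2FC 0.70). Beside Sox6, the PDGFRα hi side held Tcf4, an E protein, at 2037, 1466 and 2691 CPM against 359, 398 and 336 CPM (log2FC -2.51 ± 0.26), and Runx1 at 192, 132 and 148 CPM against 18.5, 15.4 and 19.5 CPM (log2FC -3.14 ± 0.24, adjusted p = 7.28e-05). The CD34+ side held Zeb2, at 1929, 2018 and 1682 CPM against 120.4, 136 and 116 CPM (log2FC 3.92 ± 0.18, adjusted p = 7.00e-06), Osr1 at 202, 164 and 139 CPM against 2.28, 2.37 and 1.38 CPM (log2FC 6.37 ± 0.31), and Pparg, the adipogenic nuclear receptor, at 35.1, 35.1 and 34.8 CPM against 0.268, 0.677 and 0.230 CPM (log2FC 6.31 ± 0.45). The CD34+ FB libraries lay within 1 CPM of each other for Pparg. The homeobox gene Pitx1 had 0 counts in PDGFRα hi FB and 5.53, 6.89 and 9.24 CPM in CD34+ FB. Among axon guidance genes 9 of 21 were called higher in CD34+ FB and 2 in PDGFRα hi FB (list median log2FC 1.66). Slit3, a secreted ROBO ligand, stood at 1635, 1465 and 1169 CPM in CD34+ FB and 86.9, 67.8 and 46.3 CPM in PDGFRα hi FB (log2FC 4.42 ± 0.28), and Efnb2, a membrane-bound ephrin, at 7.81, 20.3 and 20.6 CPM against 526, 436 and 369 CPM (log2FC -4.76 ± 0.40). In the list of angiogenic factors 2 genes were called in CD34+ FB and 2 in PDGFRα hi FB among 13 (list median log2FC 0.66), the latter with Vegfa at 102, 154 and 203 CPM against 25.0, 32.7 and 44.4 CPM (log2FC -2.17 ± 0.33). Thbd and Epas1, named for their abundance, were higher in PDGFRα hi FB as well. Thbd, thrombomodulin, stood at 2906, 3536 and 2735 CPM against 610.3, 610.5 and 847 CPM and Epas1, a hypoxia-inducible factor, at 1865, 2265 and 1779 CPM against 217, 323 and 289 CPM (log2FC -2.14 ± 0.20 and -2.82 ± 0.21).

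Genes with the largest fold changes outside the lists included Flrt2, an adhesion protein that binds UNC5 receptors, at 137, 72.0 and 81.9 CPM in CD34+ FB and 0, 0.0564 and 0 CPM in PDGFRα hi FB (log2FC 11.24 ± 0.59, adjusted p = 1.22e-05). Abi3bp, a matrix-bound adhesion protein, stood at 1137, 864 and 711 CPM against 0.804, 0.621 and 1.95 CPM (log2FC 9.72 ± 0.48, adjusted p = 8.60e-06), and Olfml2b at 136, 92.2 and 112 CPM against 0, 0.169 and 0.115 CPM (log2FC 9.82 ± 0.46). PDGFRα hi FB were at or next to 0 for all 3. Zfpm2, a cofactor of GATA factors, was similar, at 46.5, 30.3 and 35.8 CPM against 0, 0.0564 and 0 CPM. With 0 counts in each PDGFRα hi FB library, Ccdc81, Enox1, Nkain4, Vwc2 and Plppr5 were at least 74.0-fold, 53.5-fold, 46.4-fold, 43.7-fold and 35.2-fold higher in CD34+ FB. In the other direction, with 0 counts in each CD34+ FB library, Adgrg1, an adhesion G protein-coupled receptor, had a bound of 42.1-fold: at least that much higher in PDGFRα hi FB. For Cacna2d3, a calcium channel subunit, Hs3st6 and Lhfpl3 the bounds were 41.0-fold, 18.6-fold and 17.9-fold. Tmem132e stood at 74.2, 103 and 41.5 CPM in PDGFRα hi FB and 0.191, 0 and 0.107 CPM in CD34+ FB, and Tll2, a relative of the procollagen C-proteinase, at 49.3, 27.1 and 57.0 CPM against 0, 0.175 and 0 CPM. The pseudogene Gm29013 was the third most abundant called gene of PDGFRα hi FB, at 3323, 2825 and 6458 CPM against 1311, 1220.3 and 1472 CPM, with replicate 3 far above its group mates. Its log2FC of -1.66 ± 0.32 fell short of the threshold without that library (-1.18), and its adjusted p was 0.0616 and 0.0676 without replicate 1 or 2 of CD34+ FB. Mfap4, a microfibril protein, and Rgs5, a regulator of G protein signalling, completed the most abundant called genes of CD34+ FB, at 3501, 2749.8 and 3956 CPM and 3869, 4090.3 and 3449 CPM against 409, 323 and 189 CPM and 266, 363 and 152 CPM (log2FC 3.48 ± 0.30 and 3.88 ± 0.31).

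Markers of other cell types were examined in each library, since a gate can hold some. For pericytes the direction differed by marker: Rgs5 was higher in CD34+ FB, whereas Kcnj8 and Cspg4 (log2FC -2.36 ± 0.38) were higher in PDGFRα hi FB. These were the 3 called genes of 7 tested (list median log2FC -0.41). The study sorted pericytes as ESAM-1+ cells without PDGFRα, which the gates of both populations leave out. The 10 pericyte genes summed to 4131, 4395 and 3743 CPM in CD34+ FB and 1594, 2074 and 1011 CPM in PDGFRα hi FB, and without Rgs5, the most abundant in CD34+ FB, to 262, 305 and 294 CPM and 1329, 1711 and 859 CPM. Markers of interstitial cells of Cajal lay on the PDGFRα hi side, with Gja1 at 414, 341 and 641 CPM against 15.3, 15.9 and 15.8 CPM (log2FC -4.90 ± 0.30), Etv1 at 469, 416 and 461 CPM against 27.2, 25.2 and 24.8 CPM (log2FC -4.12 ± 0.19) and Kit at 7.10, 8.52 and 43.4 CPM against 0.572, 0.175 and 0.430 CPM (log2FC -5.64 ± 0.93). Kit was highest by far in replicate 3, and its log2FC without that library was -4.27 (adjusted p = 0.000448). The defining channel gene Ano1 was near 0 in both, at 1.43, 0.262 and 0.752 CPM and 0, 2.31 and 0.115 CPM. Their part in the results was not tested.

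Endothelial genes gave no call among 6 tested (list median log2FC -0.37), with Pecam1 at 29.8, 37.7 and 31.9 CPM in CD34+ FB and 50.9, 37.3 and 65.6 CPM in PDGFRα hi FB. Their 10 members summed to 140.1, 154 and 129 CPM and 265, 234 and 186 CPM, Eng being the most abundant and Cldn5 at 0 in all 6 libraries. Of 4 lymphatic endothelial markers tested 1 was called, Prox1, higher in PDGFRα hi FB at 6.70, 5.70 and 9.88 CPM against 0.476, 0.175 and 0.215 CPM, and not tested without any 1 of the PDGFRα hi FB libraries. Lyve1 stood at 1.34, 4.23 and 23.8 CPM in PDGFRα hi FB and 0.191, 0.262 and 1.18 CPM in CD34+ FB (log2FC -4.19 ± 1.19, adjusted p = 0.0544), highest in replicate 3 of PDGFRα hi FB. It was called without replicate 1 of that population (adjusted p = 0.0270), with DESeq2 (0.000940) and with the other filters on low counts (0.0289 and 0.0486). Lyve1 was called with the replicate number as a block as well. The 6 list genes without Pdpn, the most abundant and one that fibroblasts express, summed to 2.67, 4.97 and 3.65 CPM in CD34+ FB and 9.24, 12.2 and 46.0 CPM in PDGFRα hi FB. CD31+ cells had been gated out of both populations, and the part of any lymphatic cells left in replicate 3 was not tested. Epithelial genes were nearly absent, with 2 of 12 passing the filter on low counts and Epcam, Krt8 and Krt20 at 0 counts in all 6 libraries. Their summed level was 8.77, 10.5 and 11.5 CPM and 4.96, 8.58 and 4.71 CPM, most of it Lgals4. Haematopoietic markers summed to 39.1, 44.4 and 35.4 CPM and 43.8, 47.8 and 14.6 CPM, Lyz2 having the highest mean over the 6 libraries. Without Lyz2 the sums were 34.4, 41.5 and 34.1 CPM and 20.8, 20.6 and 11.7 CPM, higher in each CD34+ FB library than in any PDGFRα hi FB library. Lineage-positive cells had been gated out of both, and the part of any haematopoietic cells left was not tested. Lyz2 itself stood at 4.67, 2.88 and 1.29 CPM in CD34+ FB and 23.0, 27.2 and 2.87 CPM in PDGFRα hi FB, where replicates 1 and 2 were high (log2FC -2.56 ± 0.80, not called). It was called without replicate 3 of that population (log2FC -3.06, adjusted p = 0.000530), with DESeq2 (0.00668) and without a filter on low counts (0.0479). Lyz2 was called with the replicate number as a block as well. Of 9 tested 1 was called, Cd3e, at 1.24, 0.698 and 1.93 CPM in CD34+ FB and 0 counts in PDGFRα hi FB (list median log2FC 0.54). Cd3e was not tested without any 1 of the CD34+ FB libraries and lost its call with the replicate number as a block. Cd74, at 13.7, 10.0 and 5.05 CPM in CD34+ FB and 0.268, 1.81 and 0 CPM in PDGFRα hi FB (log2FC 3.65 ± 1.02, adjusted p = 0.0516), was not called. It was called without replicate 2 or 3 of PDGFRα hi FB (adjusted p = 0.0121 and 0.00941), with DESeq2 (0.00116), with RLE size factors (0.0493) or upper-quartile normalisation (0.0468) and with the other filters on low counts (0.0301 and 0.0439). Cd74 was called with the replicate number as a block as well. The glial and neuronal list had 840.3, 1087 and 949 CPM in CD34+ FB and 85.7, 109.5 and 104 CPM in PDGFRα hi FB, nearly all of it Ncam1, which fibroblasts also express. Ncam1 stood at 828, 1071 and 936 CPM against 77.7, 98.2 and 95.9 CPM (log2FC 3.39 ± 0.20, adjusted p = 2.14e-05), although NCAM hi cells had been gated out of both. The mesothelial list stayed at or under 2.97 CPM in each library, with Upk3b at 0 in all 6. Of 5 lymphoid stromal markers tested 1 was called, Cxcl13 (list median log2FC 1.37), or 2 without replicate 3 of PDGFRα hi FB. Bst1, the gene of the gated-out BP3 antigen, stood at 1.91, 2.27 and 1.18 CPM in CD34+ FB and 1.61, 1.47 and 1.26 CPM in PDGFRα hi FB.

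Immediate early genes, which tissue dissociation is known to induce, were higher in CD34+ FB for 6 of 15 tested and in PDGFRα hi FB for none (list median log2FC 1.92). Without replicate 3 of PDGFRα hi FB the count was 10. Egr1 stood at 2361, 1888 and 2680.2 CPM in CD34+ FB and 532, 261 and 455 CPM in PDGFRα hi FB (log2FC 2.47 ± 0.30, adjusted p = 0.000860), and Jun at 277, 226 and 456 CPM against 93.5, 47.5 and 77.9 CPM (log2FC 2.13 ± 0.35, adjusted p = 0.00434). The part of the dissociation in this difference was not tested. Heat shock genes gave 1 call of 12 (list median log2FC 0.23), Hspb8, a small heat shock protein, at 80.7, 100.4 and 93.4 CPM in CD34+ FB and 0.804, 1.81 and 1.95 CPM in PDGFRα hi FB (log2FC 5.87 ± 0.36), or 2 calls without replicate 1 of PDGFRα hi FB. In this list Hsp90aa1, Hspa1a, Hspa1b, Hspb1 and Hspd1 share 50% or more of their 31-mers with other genes, so their estimates are uncertain. Among 21 interferon-induced genes 1 was called, Oas2, higher in CD34+ FB (log2FC 1.74 ± 0.32), which lost its call without replicate 3 of CD34+ FB (adjusted p = 0.0560) and with length-scaled counts (log2FC 1.39). The list median was -0.30. Of 17 genes of antigen presentation 1 was called in each direction (list median log2FC -0.03). Among 10 cell cycle genes 1 was called, Ccnb2 (list median log2FC -0.13). With 8.84% of all genes tested called, 1 call in a list of this size does not set the list apart. Ccnb2 stood at 9.78, 20.9 and 15.3 CPM in PDGFRα hi FB and 2.19, 1.13 and 1.505 CPM in CD34+ FB. The 4 sex-linked genes tested, Ddx3y, Eif2s3y, Kdm5d and Uty, are genes of the Y chromosome. Of them 1 was called, higher in PDGFRα hi FB (list median log2FC 0.13). The part of the sex of the mice in the results was not tested.

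In the model that took its spread from all 15 small intestinal libraries, 26 of the genes named above as called had an adjusted p over the threshold, with log2FC within 0.20 of the values given. They were Ackr1, Adgrg1, Bco1, Bmpr1b, C7, Ccnb2, Cd34, Cd3e, Cfb, Chrd, F3, Foxl1, Gm29013, Hey1, Hpgd, Hs3st6, Inhba, Kit, Oas2, Pitx1, Prox1, Ptgis, Ptgs1, Rdh10, Rspo3 and Sfrp4. Of 100 counts of called list genes by direction, 31 were over 1.5 times lower in that model and 0 higher. Pericytes and smooth muscle cells were among the libraries that model added.

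**Figure D3:**
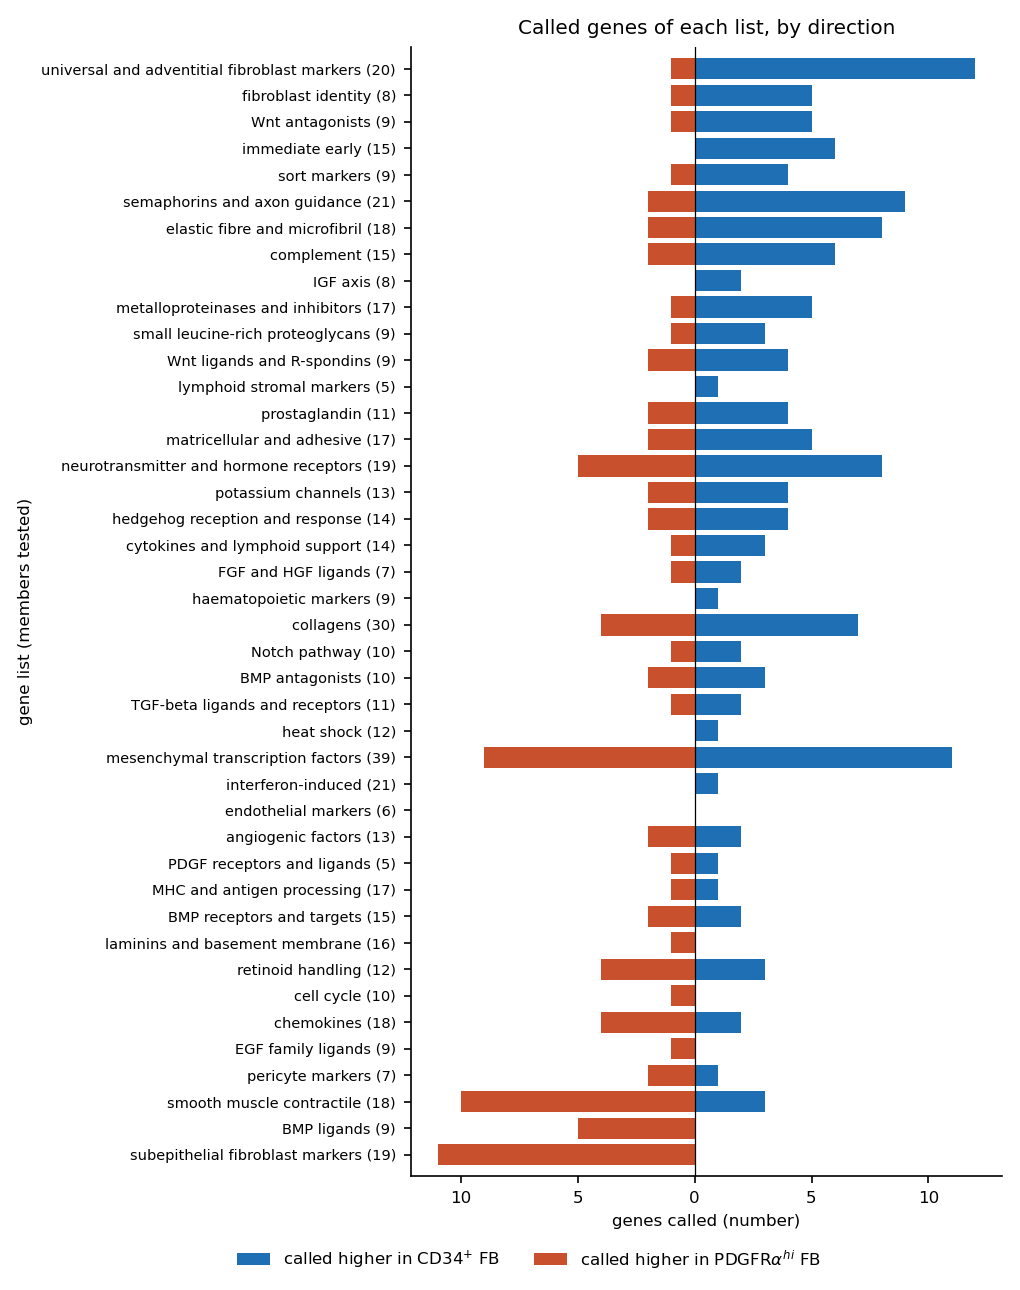
Number of genes of each list called higher in CD34+ FB (blue bars, to the right of 0) and in PDGFRα hi FB (red bars, to the left of 0), for lists with at least 5 members tested. Subepithelial fibroblast markers, BMP ligands and smooth muscle contractile genes extend furthest to the left for their size, and fibroblast identity genes and universal and adventitial fibroblast markers to the right.

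Related populations sorted from the colon allow a test of whether the contrast differs between the samples of the tissues. The colonic counterparts were PDGFRα hi FB and the mean of CD81+ FB and CD90+ FB, 9 libraries from mice of the same strain and age, all ESAM-1-negative, and the tissue difference is the small intestinal log2FC minus the colonic log2FC. Colonic Fgfr2+ FB, which the study also sorted as CD34+ cells, were not part of the counterpart. The colonic gates were others: PDGFRα hi FB were taken as CD34-negative, PDPN+ cells with no gate on PDGFRα, CD81+ FB as CD34+, CD90-negative cells of intermediate PDPN, and CD90+ FB as CD34+ cells with CD90 and high PDPN. Tissue and gate cannot be told apart in this difference. Of 16624 genes tested, 182 (1.09%) had a tissue difference past the same thresholds, 141 of them positive and 41 negative. Among the 1351 genes called in the small intestine, 134 were of this kind. The count rested on some libraries and on the counterpart: it was 115 without replicate 2 of small intestinal CD34+ FB and 318 without replicate 1 of colonic CD81+ FB, 324 with CD90+ FB alone as the counterpart and 430 with DESeq2.

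Ccl11 reversed between the tissues. In the colon it stood at 369.8, 473 and 657 CPM in CD81+ FB, 174, 460.3 and 310.1 CPM in CD90+ FB and 6.98, 21.2 and 15.3 CPM in PDGFRα hi FB, while in the small intestine it was higher in PDGFRα hi FB (tissue difference -6.41 ± 0.56, adjusted p = 4.75e-06). C7 did the same, at 134, 99.8 and 29.2 CPM in colonic CD81+ FB and 0.122, 0.128 and 2.71 CPM in colonic PDGFRα hi FB (tissue difference -5.81 ± 1.01, adjusted p = 0.00582). With CD90+ FB alone as the counterpart the adjusted p of C7 was 0.0509 (tissue difference -3.60). In both genes colonic PDGFRα hi FB had the lowest mean of the populations compared and small intestinal PDGFRα hi FB the highest. Kcnj8, Abcc9, Sfrp1 and Fbln1 had colonic values of the same sign, with a larger difference in the small intestine. For Kcnj8 colonic PDGFRα hi FB stood at 60.6, 74.9 and 58.5 CPM (colonic log2FC -2.98, tissue difference -6.04 ± 1.13, adjusted p = 0.0103), and for Abcc9 at 185, 214 and 212 CPM (colonic log2FC -1.62, tissue difference -4.64 ± 0.47). Sfrp1 stood at 1369, 1587 and 1194 CPM in colonic CD81+ FB and 80.2, 165 and 145 CPM in colonic PDGFRα hi FB (tissue difference 4.34 ± 0.37, adjusted p = 3.90e-06). Fbln1 had a colonic log2FC of 2.19 against 8.35 in the small intestine (tissue difference 6.16 ± 0.41, adjusted p = 4.54e-07). Col3a1 and Postn, matrix genes of small intestinal CD34+ FB, were high in each of the colonic populations. Their colonic log2FC of 0.73 and 0.33 lay under the fold threshold, so neither was called in the colon (tissue difference 2.77 ± 0.43 and 4.38 ± 0.47). Fgf7 and Dkk2, both called higher in small intestinal CD34+ FB, had colonic values of the opposite sign that were not called (log2FC -0.96 and -1.79). Fgf7 stood at 194, 119 and 159 CPM in colonic PDGFRα hi FB and 43.4, 108 and 88.1 CPM in CD81+ FB (tissue difference 7.23 ± 0.64, adjusted p = 5.17e-06). Dkk2 stood at 13.5, 16.7 and 14.3 CPM and 2.58, 3.47 and 11.1 CPM (tissue difference 5.72 ± 0.62, adjusted p = 5.77e-05).

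Bmp2, uncalled in the small intestine at 109, 96.4 and 111 CPM in CD34+ FB and 192, 145 and 210.4 CPM in PDGFRα hi FB, stood at 477, 508 and 547 CPM in colonic PDGFRα hi FB and 51.4, 81.6 and 53.8 CPM in colonic CD81+ FB (tissue difference 2.49 ± 0.32, adjusted p = 0.000348). Rgs5 was lower throughout the colonic fibroblasts, at 61.1, 30.5 and 23.2 CPM in CD81+ FB and 53.0, 45.7 and 61.1 CPM in PDGFRα hi FB (tissue difference 3.47 ± 0.51). The tissue difference was not past the thresholds for Bmp5, Bmp7, Bmp3, Wnt5a, Wnt4, Sox6, Grem1, Rspo3, Ackr4, Ednrb, Myh11 and Acta2. Their colonic log2FC were -3.76, -4.61, -4.17, -3.65, -1.74, -7.80, 6.06, 5.46, 3.46, -6.27, -3.79 and -4.81, each with the sign of the small intestinal value.

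**Figure D4:**
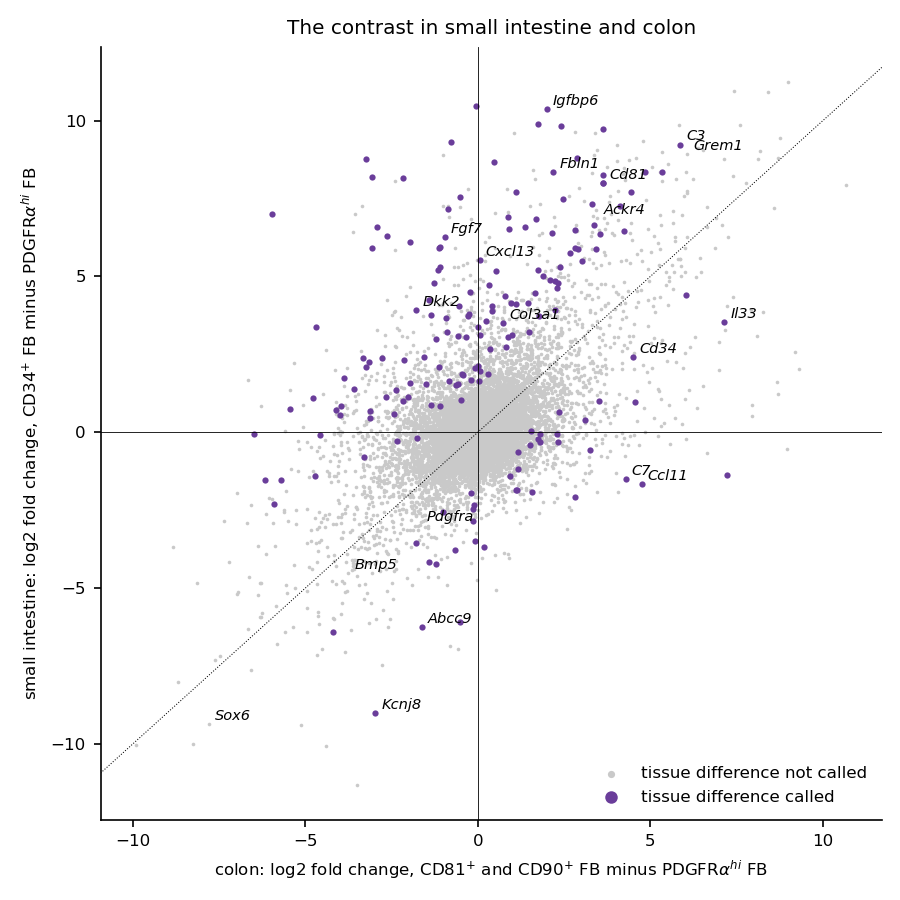
Log2 fold change of each gene in the colon (x axis, mean of CD81+ and CD90+ FB minus PDGFRα hi FB) and in the small intestine (y axis, CD34+ FB minus PDGFRα hi FB), 3 libraries per population, with the dotted line where both are equal. Purple points are genes whose tissue difference was called, such as Ccl11 and C7, which lie right of 0 in the colon and below 0 in the small intestine.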

How the data were processed

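RNA of sorted cells was sequenced as single reads after whole transcriptome amplification. According to the submitters' processing notes, reads were trimmed with Trim Galore 0.4.0, checked with FastQC 0.11.2 and quantified per transcript with kallisto 0.42.5 against GRCm38, with the annotation release not stated. The deposited files give for each transcript an estimated count (the expected count of kallisto), TPM and the effective length computed by the authors. Estimated counts were summed to genes with GENCODE M21 on GRCm38 (97116 of 98492 transcripts matched) and rounded to whole numbers, and older symbols in the lists were mapped to current ones.

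The test, of genes that reached 6 counts in 3 or more of the 6 libraries, was run with edgeR 4.0.16 (limma 3.58.1, R 4.3.3) by the quasi-likelihood test after TMM normalisation, with Benjamini-Hochberg adjusted p-values over all genes tested. Genes were called at an adjusted p under 0.05 and a log2FC beyond 1.5. CPM were scaled by TMM over all 30 libraries. The tissue difference was tested in the same way as an interaction over 15 libraries. The code was tested on simulated data.

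Genes were named from the gene lists, from the 12 called genes in each direction with the largest log2FC and from the 12 with the highest level, where the libraries of the populations did not overlap. Members and lists were chosen with earlier results of these data known. Lists were described by counts and medians. Setting genes at 0 in 1 population to their bound left the median of each list with at least 5 tested members unchanged. Genes of which 50% or more of the transcript 31-mers occur in other genes were taken as uncertain. Promoter windows came from RefSeq. Values of some genes that the rule covers are not reported here.

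Alternatives were DESeq2 1.42.0, RLE and upper-quartile normalisation, other filters on low counts, length-scaled counts, the replicate number as a block, a model of all small intestinal libraries, a log2FC threshold of 1, each colonic counterpart alone and leaving out each library. It is uncertain whether replicate numbers mark mice. Depth was between 7327358 and 18148945 estimated counts per library in the small intestinal populations compared and between 6865683 and 19096945 in the colonic ones.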

Additional observations from a re-analysis of the deposited data

Results flagged for a closer look

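The contrast between the fibroblast populations differed between small intestine and colon, by the test of the tissue difference itself, for 37 of 165 genes named and tested, against 1.09% of all genes tested. Many of the named genes were chosen for a large small intestinal difference, which enters the tissue difference. The gates differed between the tissues, and tissue and gate cannot be told apart. Values are small intestinal log2FC minus colonic log2FC. No outlier test was applied to groups of 3 libraries.

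The difference was negative for Ccl11 (-6.41 ± 0.56), Kcnj8 (-6.04 ± 1.13), Abcc9 (-4.64 ± 0.47), C7 (-5.81 ± 1.01), Il33 (-3.60 ± 0.79), Lama4 (-1.78 ± 0.25) and Col14a1 (-1.64 ± 0.33). It was negative for Cd34 (-2.09 ± 0.33) as well, a gene whose protein was part of the gates in both tissues, so that its value is a description. It was positive for the matrix genes Olfml2b (7.43 ± 0.60), Fbln1 (6.16 ± 0.41), Abi3bp (6.07 ± 0.52), Postn (4.38 ± 0.47) and Col3a1 (2.77 ± 0.43). Among secreted signals it was positive for Fgf7 (7.23 ± 0.64), Cxcl13 (5.50 ± 0.82), Fgf10 (3.17 ± 0.57), Wnt2b (3.12 ± 0.53) and Bmp2 (2.49 ± 0.32). For antagonists and binding proteins of such signals it was positive in Igfbp6 (8.51 ± 1.49), Dkk2 (5.72 ± 0.62), Sfrp1 (4.34 ± 0.37), Hhip (3.58 ± 0.49) and Apcdd1 (3.52 ± 0.71). The complement gene C3 (3.37 ± 0.53) had a positive value as well.

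Transcriptional regulators with a positive value were Pitx1 (10.21 ± 1.39), Zfpm2 (8.19 ± 0.71), Osr1 (2.83 ± 0.59) and Zeb2 (1.68 ± 0.28). Surface proteins and receptors were Cd81 (4.33 ± 0.88), Ncam1 (3.38 ± 0.26), Agtr1a (3.27 ± 0.73) and Ackr3 (2.67 ± 0.45). The remaining genes with a positive value were Enox1 (10.67 ± 1.52), Ano1 (6.36 ± 1.16), Rgs5 (3.47 ± 0.51), Hpgd (3.35 ± 0.54) and Hspb8 (2.44 ± 0.49). Where a gene had 0 counts in small intestinal PDGFRα hi FB, as Enox1, Igfbp6 and Pitx1 did, the fitted value depends on the prior count and is no bound. The colonic log2FC had the opposite sign to the small intestinal one for Ccl11 and C7, and, without a call in the colon, for Dkk2 (-1.79), Fgf7 (-0.96), Pitx1 (-0.77) and Enox1 (-0.05).

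Of these genes, 29 kept the call without each of the 15 libraries in turn and 8 did not. The number of libraries whose omission ended the call was 10 for Agtr1a (adjusted p up to 0.108), 9 for Il33 (up to 0.112) and 6 for Osr1 (up to 0.0766). It was 4 for Apcdd1 (up to 0.0792), 4 for Cd81 (up to 0.0937), 4 for Col14a1 (up to 0.0664) and 3 for Hspb8 (up to 0.0634). Ano1 lost its call without replicate 1 of small intestinal CD34+ FB (adjusted p = 0.0583). With CD81+ FB alone as the colonic counterpart Agtr1a, Apcdd1, C3, Cd81 and Hspb8 lost the call, and with CD90+ FB alone C7, Col14a1, Fgf10, Il33, Lama4 and Zeb2.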

How the results depend on the processing

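The 147 called genes named in the text kept their direction in every alternative that tested them, and 2065 of 2114 values stayed past both thresholds. All 147 kept their call with DESeq2, with RLE size factors and without a filter on low counts, 146 did so with upper-quartile normalisation and 144 with length-scaled counts. Upper-quartile normalisation moved the median log2FC of all genes by 0.12. The number of genes called was 1589 with DESeq2 (1339 shared), 1352 with RLE size factors, 1365 with upper-quartile normalisation, 1381 without a filter, 1374 with 10 counts asked of every library of 1 population, 1247 with length-scaled counts and 1721 at a log2FC beyond 1. Of 1500 list counts under the alternatives, 1319 lay within 1.5 times the reported count.

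With all 15 small intestinal libraries in 1 model, 489 genes were called, 302 higher in CD34+ FB and 187 in PDGFRα hi FB. The cause was not tested. Leaving out 1 library gave 781 to 1673 genes, 416 to 1068 higher in CD34+ FB and 365 to 605 in PDGFRα hi FB. The lowest counts came without replicate 1 of CD34+ FB, when fewer genes were tested and calls were also lost among genes still tested. The highest came without replicate 3 of PDGFRα hi FB, when 135 named genes kept their call, 11 were not tested and Gm29013 lost it. The 7 named genes that lost a call without some library were C7, Chrd, Col1a2, Foxl1, Gm29013, Nbl1 and Oas2. Of the 147 named genes called, 19 were not tested without any 1 of the CD34+ FB libraries. Without any 1 of the PDGFRα hi FB libraries 11 were not tested. Genes not tested in a fit could not lose their call in it.

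The tissue difference gave 430 genes with DESeq2 (303 positive, 127 negative) and 324 with CD90+ FB alone as the counterpart (225 positive, 99 negative). With CD81+ FB alone 82 were negative. Leaving out 1 library gave 115 to 318 genes, 92 to 239 positive and 23 to 79 negative. The cause was not tested.

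Signs changed for 3 genes that were not called. Ano1 (-0.07 ± 1.26) was 0.03 with DESeq2, 0.04 with upper-quartile normalisation, 1.03 with length-scaled counts and 1.2 with the replicate block. Only 3 of the fits without 1 library gave a value for Ano1, from -0.61 to 0.39. Bst1 (0.31 ± 0.60) was -0.90 with length-scaled counts and 0.13 to 0.56 without 1 library. Actg2 (-0.50 ± 0.70) ranged from -0.92 to 0.69 without 1 library.

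Replicate numbers were also fitted as a block, although nothing in the labels pairs them across populations. The paper says that subsets of both tissues came from the same mice, in 3 independent sorts per population. It does not tie replicate numbers to mice or sorts. Deviations from the population means correlated across genes at 0.0456, 0.000769 and 0.00633 between libraries of the same number, and 2 of the 6 libraries correlated best with their own number. The block gave 1205 called genes (731 and 474 by direction), 1154 of them shared, and 194 genes for the tissue difference. Cd3e and Col1a2 lost their call with it (6.63 and 1.48, adjusted p = 0.0791 and 0.00429). Wnt9a, Lyve1, Lyz2 and Cd74, not called in the fit reported, were called with it (3.51, -3.81, -2.29 and 4.41, adjusted p = 0.0424, 0.0102, 0.0329 and 0.0261). No other named gene changed its call between the populations. Of 100 list counts, 4 were over 1.5 times lower and 3 higher, with 1 BMP receptor or target gene, 1 elastic fibre gene and 0 Notch genes higher in PDGFRα hi FB.

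Depth limits what can be said of genes with few counts: a gene at 0 in 1 population has only a lower bound on its fold, against 3 counts per library. With 3 libraries a population, the spread is estimated by sharing information between genes, and the smallest p of an exact permutation test is 0.10. Transcripts that share sequence with other genes are estimated less well. The labels give the CD34+ gate as holding more than 1 subset, which bulk values cannot separate.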

Other observations

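The genes that divided the populations also varied in the 3 other small intestinal populations of the study, given here as means of 3 libraries with no test. Grem1 stood at 29.0 CPM in smooth muscle cells, 62.4 CPM in Fgfr2+ FB and 31.4 CPM in pericytes. Bmp7 stood at 94.1 CPM in Fgfr2+ FB, 39.2 CPM in smooth muscle cells and 13.7 CPM in pericytes. Sox6 stood at 34.8, 16.3 and 36.6 CPM in the same order. C3, the complement component, stood at 399, 32.3 and 34.4 CPM.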
